A study of Mus musculus with 6 samples.

Results

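Wnt signalling was examined through 42 genes: 11 Wnt ligands, 8 Frizzled receptors, 6 co-receptors and members of the R-spondin axis, 7 secreted inhibitors and 10 target genes. They were chosen by gene name, and every non-control probe carrying one of these names was taken, which gave 71 of the 56605 probes on the array. Wnt ligands are secreted lipid-modified proteins that bind Frizzled receptors together with the co-receptors Lrp5 and Lrp6; this stabilises beta-catenin, which enters the nucleus and switches on target genes through Tcf and Lef factors. R-spondins, acting through Lgr receptors, keep Frizzled receptors on the cell surface by restraining the ubiquitin ligases Rnf43 and Znrf3, while secreted inhibitors bind the ligands or the co-receptors. In the liver, Wnt ligands and R-spondins from stromal and endothelial cells are known for their part in zonation and in the response of duct cells to injury.

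Total RNA came from common bile duct epithelium of C57BL/6 mice that the source labels call iFGF10, a name for an inducible construct of the growth factor Fgf10. In the DOX+ group, 3 samples came from iFGF10 mice that drank water with 0.02% doxycycline, the inducing drug, for 5 days. In the DOX- group, the 3 samples came from mice given plain water over the same 5 days. The question is what induction of FGF10 does to the duct, since the series title concerns papillary neoplasia of bile ducts and that signal. The DOX- samples are called untreated iFGF10 mice in one label, while another label gives names starting with WT and followed by a pair of numbers, so whether the controls carried the construct, or were pools, is not settled. Ages, the promoter driving the construct and its cell type are not given in the sources used here. Mice lacking the construct but given the drug were not analysed here, so effects of the drug and of the induced gene cannot be told apart.

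Each sample was hybridised to 1 Agilent 1-colour array, which limits the precision through the number of arrays. The share of spots well above background ran from 55.93% to 61.9%, and no spot was saturated. A level below is the log2 processed intensity of a probe after subtracting the 75th percentile of its array, and a difference is DOX+ minus DOX- on that scale with its standard error (SE) from limma, which pools the spread across genes. Levels of different probes are not compared. Of the duct markers, Krt19, Epcam and Sox9 were well above background on all 6 arrays. The smooth muscle marker Acta2 was too, so the samples held RNA of other cells, and fewer cells of a type and less RNA per cell cannot be told apart in such samples. The slide had 2 rows: the first held the 3 DOX+ arrays with DOX- replicate 1, the second the remaining DOX- arrays. Where it matters, the difference within the first slide row is given too. It is the DOX+ mean minus DOX- replicate 1, and a fit with the row as a block returns the same value.

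Of the 42 genes, 37 had a probe that every array of 1 or both groups read as well above background, and 33 had a probe read so on all 6 arrays. The 5 others were Wnt2, Wnt2b, Wnt6, Dkk1 and Sfrp5. Among the 37, none passed limma at an adjusted p under 0.05 over 20736 genes, where 8 genes passed (0.0386%), 4 higher and 4 lower (0.0193% each). At an unadjusted p under 0.05 there were 7 (18.9%), 1 higher and 6 lower in DOX+, against 13.3% of all genes tested (7.02% higher and 6.32% lower). The 3 DOX+ arrays did not overlap the 3 DOX- arrays for 5 of the 37 (13.5%), all lower in DOX+, against 21.0% of all genes (10.1% higher and 10.9% lower). The median difference of the 37 was -0.07, with 18 higher and 19 lower, beside a median of -0.01 over all genes. The counts moved with single arrays, although the count of genes without overlap can only stay or rise when an array is left out. Without DOX- replicate 1 the number at an unadjusted p under 0.05 was 14 (37.8%, 8 higher and 6 lower, against 15.8% of all genes, 8.43% higher and 7.39% lower), and without DOX- replicate 2 it was 4 (10.8%, against 7.43%). The count of genes whose groups did not overlap was 11 without DOX+ replicate 2 (29.7%, against 28.3% of all genes), 15 without DOX+ replicate 3 (40.5%, against 32.8%), 15 without DOX- replicate 1 (40.5%, 8 higher and 7 lower, against 37.2% of all genes, 17.1% higher and 20.1% lower) and 8 without DOX- replicate 3 (21.6%, against 32.5%). Array weights give less say to arrays that scatter more from their group. They ran from 0.40 on DOX- replicate 3 to 4.03 on DOX- replicate 2, so the DOX- mean leaned on replicate 2. Then 12 were at an unadjusted p under 0.05 (32.4%, 5 higher and 7 lower, against 23.5% of all genes, 12.3% higher and 11.2% lower). A block for the slide row gave 6 (16.2%, all lower, against 6.79% of all genes, 3.66% higher and 3.13% lower): Wnt5a, Wnt7b and Wif1, which are among the 7, and Wnt9a, Rspo1 and Rspo3, which are not.

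**Figure D1:**
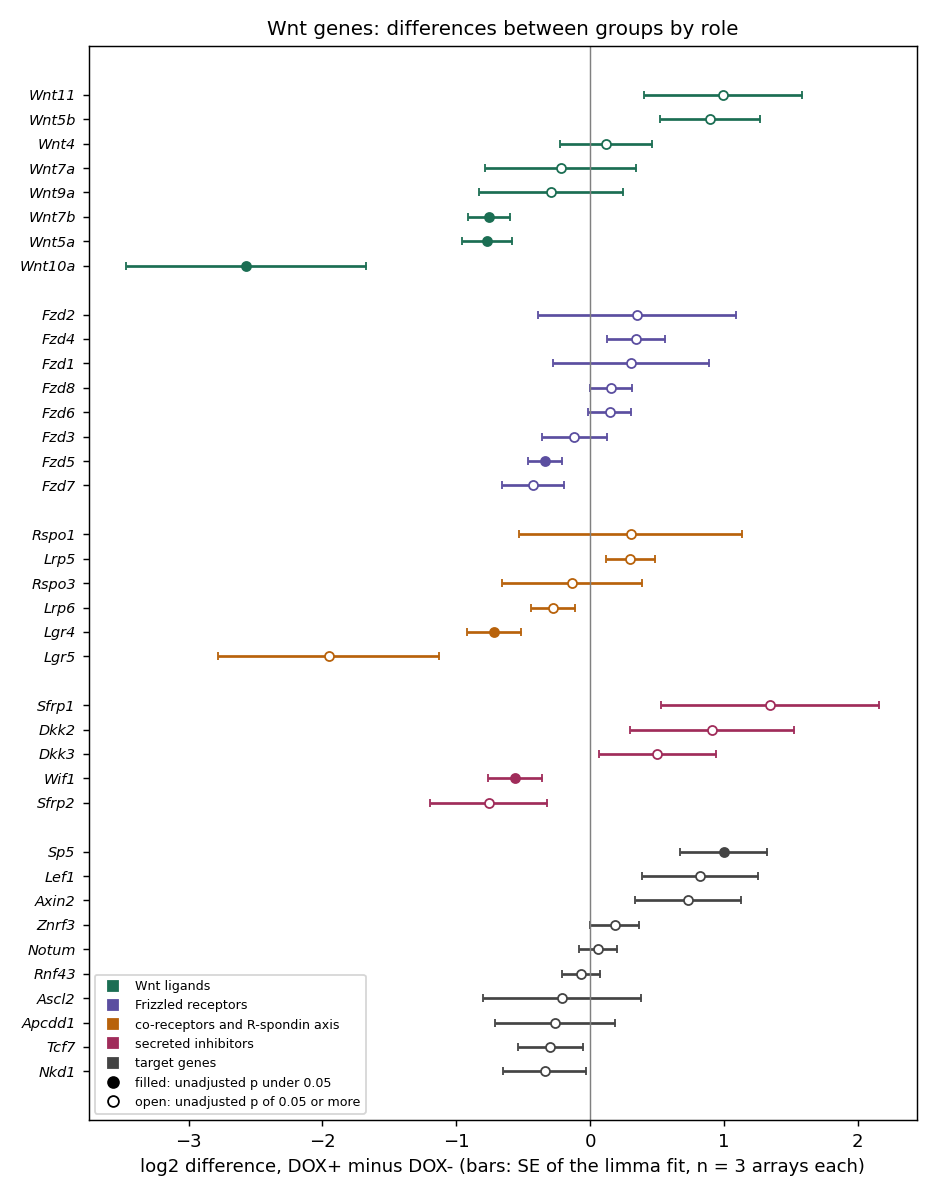
Log2 difference, DOX+ minus DOX- (horizontal axis), of the 37 Wnt genes that passed the filter on dim probes, grouped by role and sorted within it; bars are the SE of the limma fit with 3 arrays a group, and filled points have an unadjusted p under 0.05. The 7 filled points are Wnt7b, Wnt5a, Wnt10a, Fzd5, Lgr4 and Wif1 to the left of 0 and Sp5 to the right; none had an adjusted p under 0.05.

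The sequences below show what the arrays read for the genes with lower levels in DOX+ and where these probes lie. The probes are given 5′ to 3′ as in the deposited files, with mm9 coordinates. No annotation of mm9 was used here, so exons and UTRs are named only where the coordinates show them: the 60-base probes of Wnt5a and Lgr4 extend over 3963 and 1387 genomic bases, so each joins exons across an intron, whereas those of Fzd5 and Lgr5 each match 1 genomic block.
Wnt5a, chr14:29331746-29335708, plus strand: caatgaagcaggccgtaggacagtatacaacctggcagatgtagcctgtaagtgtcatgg
Lgr4, chr2:109829910-109831296, plus strand: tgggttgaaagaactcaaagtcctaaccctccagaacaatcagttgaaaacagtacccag
Fzd5, chr1:64781972-64782030, minus strand: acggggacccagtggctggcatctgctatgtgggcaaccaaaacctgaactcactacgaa
Lgr5, chr10:114899782-114899841, minus strand: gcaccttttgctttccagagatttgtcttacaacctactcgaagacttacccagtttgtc
In each of these genes a further probe with a higher mean level represents the gene, and both readings are given beside each other in the paragraphs on the ligands, receptors and R-spondin axis.

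Among the ligands, 3 of the 8 that passed the filter were above and 5 below DOX- in their mean, and the median difference was -0.26. It was -0.76 within the first slide row, -0.47 without DOX+ replicate 1, -0.68 without DOX- replicate 3 and 0.20 without DOX- replicate 1. Wnt7b, a ligand made by epithelia, was read at chr15:85365877-85365935. Its levels on DOX+ replicates 1 to 3 were 2.87, 2.46 and 2.46, and on DOX- replicates 1 to 3 they were 3.34, 3.40 and 3.32. All 3 DOX+ arrays were thus below all 3 DOX- arrays, and the DOX- arrays lay close together. The difference was -0.76 (SE 0.15; limma adjusted p = 0.189, unadjusted p = 0.00254). Within the first slide row it was -0.74. A second Wnt7b probe, at chr15:85366495-85366554, was lower as well, by -0.49 (SE 0.20), with 1.05, 0.46 and 0.69 in DOX+ and 1.11, 1.43 and 1.14 in DOX-.

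Wnt5a, a ligand that acts mostly without beta-catenin, had levels of -0.32, -0.40 and 0.17 in DOX+ and 0.61, 0.69 and 0.47 in DOX-. The groups did not overlap, and DOX+ replicate 3 was nearest to the controls. The difference was -0.77 (SE 0.19; limma adjusted p = 0.223). It was -0.79 within the first slide row. The other probe that passed the filter, at chr14:29340427-29340486, differed by -0.63 (SE 0.24), with DOX+ replicate 3 at -1.26 and DOX- replicate 3 at -1.30, so there the groups overlapped. The probe across the intron, whose sequence is given above, was well above background on 1 DOX+ and 2 DOX- arrays and differed by -0.49 (SE 0.31). The direction was the same for all 3 probes.

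Wnt10a, a ligand that signals through beta-catenin, was dim in DOX+. Its levels were -5.93, -3.79 and -7.16 on the DOX+ arrays, of which 1 was well above background, and -2.49, -2.61 and -4.07 on the DOX- arrays, which were all well above background. DOX+ replicate 2 lay above DOX- replicate 3, so the groups overlapped. The difference of -2.57 (SE 0.89; limma adjusted p = 0.324) rests on background readings on the remaining 2 DOX+ arrays, so its size and p are not those of a measured level, although the gene counts among the 7. With another background correction (normexp) it was -1.0. Wnt4, known from duct and tubule formation, gave 2.44, 2.50 and 3.67 in DOX+ and 2.93, 2.61 and 2.71 in DOX-, so that DOX+ replicate 3 alone stood above the controls (difference 0.12, SE 0.35; limma adjusted p = 0.910; -0.06 within the first slide row). Wnt7a differed by -0.22 (SE 0.57) on one probe and by -0.13 (SE 0.59) on the other, with DOX- replicate 3 below every other array on both. The first of these was -1.06 within the first slide row and 0.20 without DOX- replicate 1.

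Wnt5b and Wnt11, both mostly linked to signalling without beta-catenin, had higher means in DOX+. Wnt5b had levels of -0.35, -0.47 and -1.20 in DOX+ and -0.86, -1.91 and -1.94 in DOX-, the first DOX- array lying among the DOX+ arrays (difference 0.90, SE 0.37; limma adjusted p = 0.376; unadjusted p = 0.0508). A second Wnt5b probe differed by 0.68 (SE 0.31). For Wnt11 the levels were -3.08, -4.35 and -2.96 against -3.34, -4.81 and -5.23, with 1 of the DOX- arrays well above background, and the difference was 0.99 (SE 0.59; limma adjusted p = 0.505). The second Wnt11 probe differed by 0.07 (SE 0.44), so the probes of this gene did not show the same difference. Within the first slide row the differences were 0.19 for Wnt5b and -0.12 for Wnt11. Wnt9a differed by -0.29 (SE 0.54; limma adjusted p = 0.845).

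The 3 ligands that did not pass the filter were at or near the limit of detection. Wnt2, a stromal ligand, was well above background on 1 DOX+ array, at -3.53, and on 1 DOX- array, at -4.64. Wnt2b had no array above background, with levels from -7.28 to -6.72. Wnt6 was well above background on 2 arrays of each group, between -5.23 and -3.99 over all 6 arrays, and the groups overlapped.

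**Figure D2:**
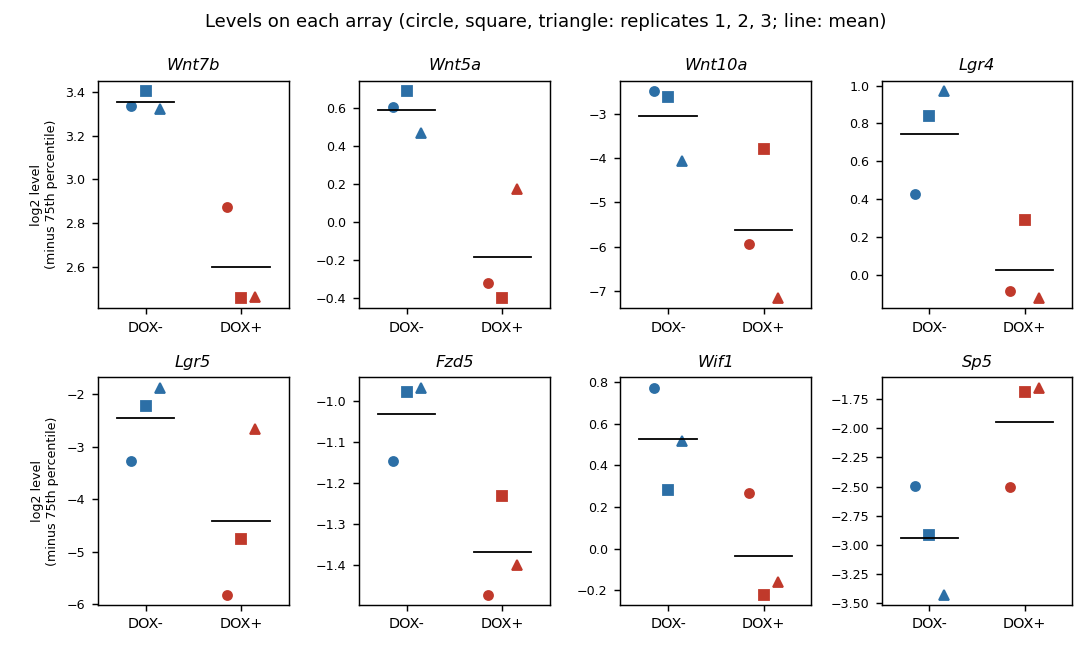
Log2 level relative to the array's 75th percentile (vertical axes, which differ between panels) on each array for 8 Wnt genes; circle, square and triangle are replicates 1, 2 and 3, blue is DOX-, red is DOX+, and the line is the group mean. For Wnt7b, Wnt5a, Lgr4, Fzd5 and Wif1 every red point lies below every blue one, by 0.01 in the closest case (Wif1, 0.27 against 0.28), while the groups overlap for Wnt10a, Lgr5 and Sp5.

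All 8 Frizzled receptors, the membrane proteins that bind Wnt ligands, were well above background on all 6 arrays, and 5 had a higher and 3 a lower mean in DOX+ (median difference 0.15). The median was -0.11 within the first slide row, -0.07 without DOX+ replicate 2 and -0.07 without DOX- replicate 3. Fzd5, a receptor of beta-catenin signalling in gut epithelium, had levels of -1.47, -1.23 and -1.40 in DOX+ and -1.15, -0.98 and -0.97 in DOX-. The groups did not overlap, and the difference was small, -0.34 (SE 0.13; limma adjusted p = 0.357; -0.22 within the first slide row). The second Fzd5 probe, whose sequence is given above, differed by -0.46 (SE 0.24) with groups that overlapped, DOX- replicate 2 at -3.44 lying below DOX+ replicates 1 and 2. Fzd4, a receptor of endothelial cells among others, was measured at 1.16, 1.28 and 1.64 in DOX+ and 0.91, 0.77 and 1.38 in DOX- (difference 0.34, SE 0.22; limma adjusted p = 0.530), and its second probe differed by 0.38 (SE 0.21). DOX- replicate 3 lay among the DOX+ arrays on both probes. Beside this, the 9 endothelial markers were all higher in DOX+, with a median difference of 0.54. At an unadjusted p under 0.05 there were 5 of the 9, against 7.02% of all genes higher in DOX+. The part of these markers in the Fzd4 value was not tested.

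The other Frizzled receptors had unadjusted p-values above 0.05. Fzd7, a receptor often found in stem cell compartments, differed by -0.42 (SE 0.23; limma adjusted p = 0.477), by -0.64 without DOX- replicate 1 and by less than 0.01 within the first slide row. Fzd1 and Fzd2 had differences of 0.31 (SE 0.58) and 0.35 (SE 0.74), which turned to -0.28 and -1.16 within that row. Those of Fzd3, Fzd6 and Fzd8 were -0.12, 0.14 and 0.16, and -0.22, 0.15 and 0.43 within the row. The second Fzd8 probe gave no reading well above background.

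In the co-receptor and R-spondin group the mean was higher in DOX+ for 2 genes and lower for 4 (median difference -0.21). The median was -0.81 within the first slide row, -0.49 without DOX- replicate 2, -0.12 without DOX+ replicate 3 and 0.03 without DOX- replicate 1. Lgr4, an R-spondin receptor of epithelial cells, was read at chr2:109854007-109854066. It gave -0.08, 0.29 and -0.12 in DOX+ and 0.43, 0.84 and 0.97 in DOX-. No DOX+ array reached a DOX- array, and the difference was -0.72 (SE 0.20; limma adjusted p = 0.255).

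The intron-spanning Lgr4 probe gave -3.58, -3.68 and -3.93 in DOX+ and -3.22, -3.27 and -3.17 in DOX-, again with every DOX+ array below every DOX- array (difference -0.51, SE 0.15). Within the first slide row the difference of the first probe was -0.40. The remaining probe gave no reading well above background.

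Lgr5, an R-spondin receptor that marks stem cells of the gut and is itself a Wnt target, was low on the DOX+ arrays. Its probe at chr10:114887403-114887462 gave -5.82, -4.75 and -2.65 in DOX+, with 2 of the 3 arrays well above background, and -3.28, -2.22 and -1.87 in DOX-. DOX+ replicate 3 lay above DOX- replicate 1, so the groups overlapped (difference -1.95, SE 0.83; limma adjusted p = 0.382; unadjusted p = 0.0548). The probe whose sequence is given above gave no DOX+ reading well above background, at -7.14, -7.40 and -6.72, whereas DOX- replicates gave -3.77, -4.77 and -5.20, with 2 of these 3 readings well above background. The mean of its DOX- readings was 1.43-fold above the mean of the lowest signals called well above background on the DOX+ arrays. That DOX- mean includes replicate 3, which was not well above background, so the value is no strict bound on the fold. This second probe did not pass the filter and was not tested. The difference of the first was -1.13 within the first slide row, -1.25 without DOX+ replicate 1 and -0.87 with another background correction (normexp).

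Lrp5 and Lrp6, the co-receptors, differed in opposite directions. Lrp5 gave 1.11, 0.83 and 0.55 in DOX+ and 0.40, 0.46 and 0.72 in DOX- (difference 0.30, SE 0.19; limma adjusted p = 0.519), and its second probe differed by 0.78 (SE 0.34). Lrp6 gave 2.05, 2.20 and 1.79 against 2.49, 2.19 and 2.20 (difference -0.28, SE 0.16; limma adjusted p = 0.500; -0.48 within the first slide row), while its second probe differed by -0.01 (SE 0.16). The groups overlapped for both genes on each probe. The mean of the Lrp5 probes differed by 0.54, without overlap of the groups (limma unadjusted p = 0.0457, adjusted p = 0.369). Rspo1 and Rspo3, the R-spondin ligands, differed by 0.30 (SE 0.84) and -0.13 (SE 0.52), and both depended on DOX- replicate 1, as described further on. The second Rspo3 probe gave no reading well above background.

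Beside the lower levels of Wnt7b, Fzd5 and Lgr4, which epithelia express, 12 of 14 cholangiocyte markers had lower means in DOX+ (median difference -0.25). Their mean level was 3.72, 3.72 and 3.55 in DOX+ and 4.02, 4.13 and 4.29 in DOX-, without overlap. All 8 markers of mast cells were higher in DOX+, with a median difference of 2.75, and all 8 proliferation markers were lower, with a median of -1.25. Among them, Fcer1a and Ms4a2 passed the filter through the DOX+ arrays alone, and Bub1b, Tpx2 and Ccnb1 through the DOX- arrays alone. The differences of these genes rest partly on background readings. None of these marker genes passed the limma test after adjustment, and their part in the Wnt values was not tested.

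Of the secreted inhibitors, 5 of 7 passed the filter, with 3 differences above 0 and 2 below, and a median of 0.50 that was -0.50 within the first slide row, 1.01 without DOX- replicate 1, 0.20 without DOX- replicate 2 and 0.30 without DOX- replicate 3. Wif1, a protein that binds Wnt ligands outside the cell, gave 0.27, -0.22 and -0.16 in DOX+ and 0.77, 0.28 and 0.52 in DOX-. The groups did not overlap, but DOX+ replicate 1 and DOX- replicate 2 differed by 0.01. The difference was -0.56 (SE 0.20; limma adjusted p = 0.327). Within the first slide row it was -0.81. Sfrp2, a secreted Frizzled-related protein that binds ligands, differed by -0.76 (SE 0.44; limma adjusted p = 0.493; -1.24 within the first slide row).

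Sfrp1, a related protein, had the largest positive difference among the 37 genes and a large error. Its levels were -1.11, -1.56 and -2.91 in DOX+ and -1.52, -3.94 and -4.16 in DOX- (difference 1.34, SE 0.81; limma adjusted p = 0.511). DOX- replicate 1 lay among the DOX+ arrays, and the other DOX- arrays lay below them all. Dkk2, which binds Lrp5 and Lrp6, gave -0.42, -1.02 and -1.15 against -0.52, -1.80 and -3.00 (difference 0.91, SE 0.61; limma adjusted p = 0.550). Dkk3, a Dickkopf relative with a less settled role, gave 2.12, 2.46 and 1.98 against 2.69, 1.09 and 1.27 (difference 0.50, SE 0.44; limma adjusted p = 0.645).

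A second Dkk3 probe differed by 0.80 (SE 0.45) and another, well above background on 2 DOX+ arrays and 1 DOX- array, by 0.98 (SE 0.61). Dkk1, the best known Dickkopf inhibitor and also a Wnt target, gave no reading well above background. Sfrp5 was well above background on 1 DOX+ and 2 DOX- arrays, with levels from -6.37 to -3.59 and groups that overlapped.

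The nuclear factors of the pathway bind DNA at sites that contain CTTTGA, and a letter T after it is common. These letters were searched on both strands in the 250 bases before the start sites of RefSeq genes on GRCm38.p6, where 26 of the 42 genes had 34 windows. The 6-letter motif was found in 6 of the 34 windows (17.6%), against 13.8% of 32851 windows of all genes. The 7-letter motif CTTTGAT, which contains the first, was found in 3 (8.82%), against 3.21%. All 3 windows with the longer motif are printed on the gene's own strand, 5′ to 3′, with the motif letters in capitals (ATCAAAG is the 7-letter motif on the opposite strand). They were picked by the motif and not by level. The other 3 windows with the short motif were those of Dkk1, Fzd1 and Lef1. A match is a description of the letters and not a site at which a factor was measured.
Sp5, chr2:70474673-70474922, plus strand: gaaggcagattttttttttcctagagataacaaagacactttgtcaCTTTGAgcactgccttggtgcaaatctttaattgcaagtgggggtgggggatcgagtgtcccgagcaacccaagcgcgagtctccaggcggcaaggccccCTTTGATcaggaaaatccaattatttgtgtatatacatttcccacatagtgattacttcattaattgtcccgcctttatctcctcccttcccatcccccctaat
Wnt5b, 1 of its 3 windows, chr6:119449387-119449636, minus strand: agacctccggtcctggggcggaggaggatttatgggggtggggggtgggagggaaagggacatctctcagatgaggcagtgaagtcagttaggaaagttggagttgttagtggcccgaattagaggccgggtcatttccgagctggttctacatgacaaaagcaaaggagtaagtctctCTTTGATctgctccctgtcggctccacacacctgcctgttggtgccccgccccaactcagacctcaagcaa
Wnt11, 1 of its 2 windows, chr7:98834862-98835111, plus strand: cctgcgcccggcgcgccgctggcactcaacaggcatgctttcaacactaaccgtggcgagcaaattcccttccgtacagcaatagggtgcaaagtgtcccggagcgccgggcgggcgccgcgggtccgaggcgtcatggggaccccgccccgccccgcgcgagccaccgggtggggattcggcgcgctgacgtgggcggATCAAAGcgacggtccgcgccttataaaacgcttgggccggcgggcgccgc
In the Sp5 window the short motif begins 204 bases and the long one 104 bases before the start site, and the long motif begins 71 bases before it in Wnt5b and 51 in Wnt11.

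The 10 target genes, which report beta-catenin activity in many tissues, did not differ in one direction: 5 differences were above 0 and 5 below (median -0.01). Sp5, a transcription factor of the Sp family that is a direct Wnt target, was the member with an unadjusted p under 0.05 and a higher level in DOX+. Its levels were -2.50, -1.69 and -1.65 in DOX+ and -2.50, -2.91 and -3.43 in DOX-. The first array of each group lay at the same level, so the groups overlapped, while the other 2 DOX+ arrays were above all DOX- arrays. The difference was 1.00 (SE 0.33; limma adjusted p = 0.305). It was 0.55 within the first slide row.

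Axin2, a scaffold of the destruction complex and the most widely used Wnt target, was read at chr11:108811980-108812039. It gave -3.86, -3.31 and -3.98 in DOX+ and -3.79, -4.30 and -5.26 in DOX-, with 2 of the 3 DOX- arrays well above background. DOX- replicate 1 lay among the DOX+ arrays (difference 0.73, SE 0.40; limma adjusted p = 0.474). The second Axin2 probe gave no reading well above background. Lef1, a DNA-binding partner of beta-catenin, gave -1.98, -1.08 and -2.37 in DOX+ and -2.21, -2.34 and -3.35 in DOX- (difference 0.82, SE 0.43; limma adjusted p = 0.461). Here too the groups overlapped, and 2 further Lef1 probes gave no reading well above background. Within the first slide row Axin2 differed by 0.07 and Lef1 by 0.39.

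Tcf7, another such partner, gave -4.56, -3.87 and -4.51 against -4.11, -4.22 and -3.72 on one probe (difference -0.30, SE 0.24; limma adjusted p = 0.621) and a difference of 0.38 (SE 0.47) on another. The probes thus differed in sign, and the remaining one gave no reading well above background. Nkd1, an inhibitor that acts on Dishevelled, gave 0.29, -0.06 and -0.44 in DOX+ and 0.79, -0.22 and 0.23 in DOX- (difference -0.34, SE 0.31; limma adjusted p = 0.664). Its difference was -0.86 within the first slide row and -0.08 without DOX- replicate 1. Apcdd1, a membrane inhibitor of the pathway, gave 0.76, 1.23 and -0.41 against 1.24, 0.68 and 0.43 (difference -0.26, SE 0.45; limma adjusted p = 0.832), and its 2 further probes differed by -0.17 and -0.28. On the first probe it was -0.72 within the row and -0.03 without that array. For both genes the groups overlapped throughout.

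On the probes that represent them, the feedback genes Notum, Znrf3 and Rnf43 were measured with small errors and differed little. Further probes of Notum and Znrf3 differed more. Notum, a secreted enzyme that removes the lipid from Wnt ligands, gave 1.69, 1.42 and 1.80 in DOX+ and 1.55, 1.61 and 1.58 in DOX- (difference 0.06, SE 0.14; limma adjusted p = 0.892), and its second probe differed by -0.40 (SE 0.32). Rnf43 gave 1.56, 1.55 and 1.34 against 1.41, 1.71 and 1.53 (difference -0.07, SE 0.14; limma adjusted p = 0.866; 0.07 within the first slide row), and its second probe differed by 0.03. For both genes the groups overlapped.

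Znrf3 gave -0.48, -0.34 and -0.92 in DOX+ and -0.79, -0.88 and -0.63 in DOX- (difference 0.18, SE 0.19; limma adjusted p = 0.699). Its 2 further probes differed by 0.40 (SE 0.17) and 0.44 (SE 0.17), and on each every DOX+ array was above every DOX- array, so the 3 probes shared a direction but not a size. The mean of the Znrf3 probes differed by 0.34, without overlap of the groups (limma unadjusted p = 0.0281, adjusted p = 0.318). Ascl2, a stem cell transcription factor of the gut, gave -2.05, -0.12 and 0.09 against -0.95, -0.30 and -0.21 (difference -0.21, SE 0.59; limma adjusted p = 0.906; 0.25 within the first slide row), with DOX+ replicate 1 apart from the other 2 DOX+ arrays. Its second probe gave no reading well above background.

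**Figure D3:**
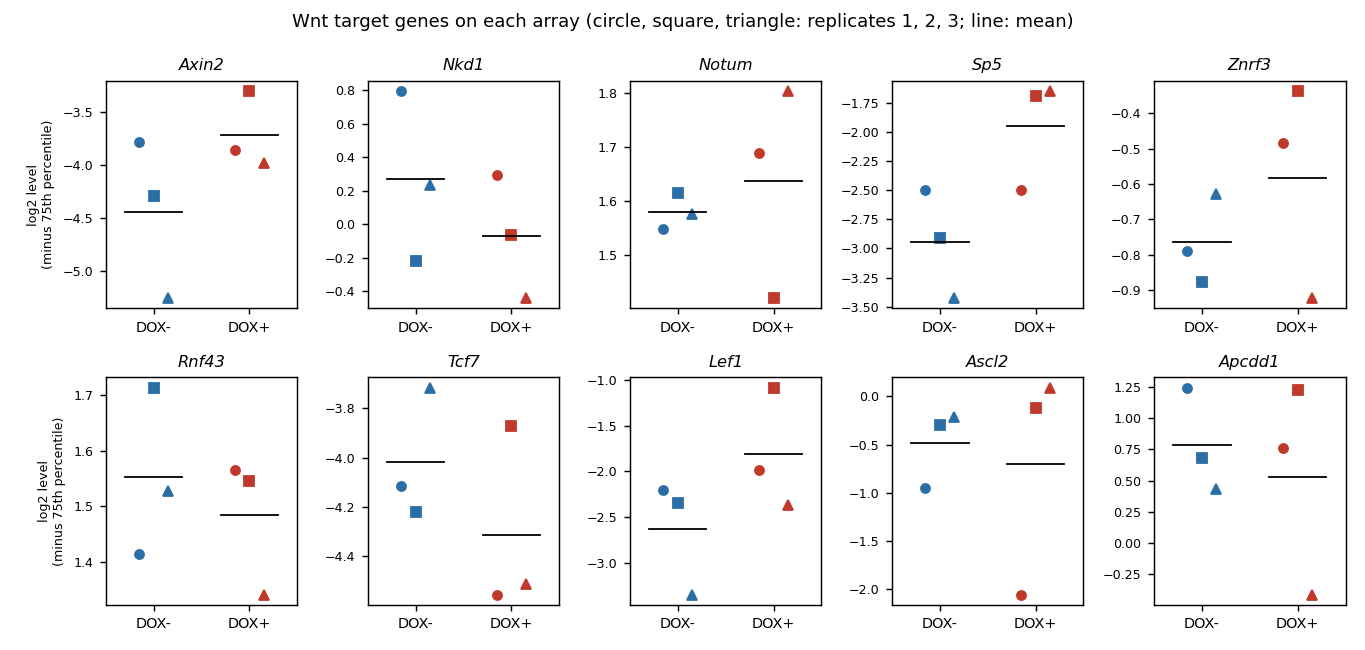
Log2 level relative to the array's 75th percentile (vertical axes, which differ between panels) of the 10 Wnt target genes on each array; circle, square and triangle are replicates 1, 2 and 3, blue is DOX-, red is DOX+, and the line is the group mean. Red and blue points overlap in every panel; Sp5, Lef1 and Axin2 have the highest DOX+ means relative to DOX-, with differences of 1.00, 0.82 and 0.73.

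DOX- replicate 1 stood apart for a set of Wnt genes. In 9 of the 37 genes (24.3%) it was more than 1 log2 unit above both other DOX- arrays, against 647 of 20736 genes (3.12%), a pattern chosen after the values were seen. The 9 were Wnt5b, Wnt9a, Wnt11, Fzd2, Rspo1, Rspo3, Dkk2, Dkk3 and Sfrp1. Rspo1 gave -0.12 on that array and -2.99 and -3.14 on the other DOX- arrays, with -1.44, -1.49 and -2.41 on the DOX+ arrays between them. Rspo3 gave -1.98 there, -4.15 and -3.30 on the other DOX- arrays, and -3.15, -3.27 and -3.41 in DOX+. Fzd2 gave -0.07 there, -2.05 and -2.62 on the other DOX- arrays, and -0.78, -0.71 and -2.20 in DOX+. For Wnt9a these values were -1.59, then -3.25 and -3.31, then -2.74, -2.61 and -3.68. In each of these 4 genes DOX- replicate 1 was the highest of the 6 arrays.

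All 9 smooth muscle markers had the same gap, as did 1 of 10 fibroblast markers. The mean of the smooth muscle markers was 3.57 on DOX- replicate 1, 1.21 and 1.23 on the other DOX- arrays, and 2.74, 2.15 and 1.56 in DOX+; the part of these markers in the Wnt values was not tested. Without this array, 8 genes were higher in DOX+ at an unadjusted p under 0.05: Wnt5b (1.25), Wnt11 (1.55), Rspo1 (1.28), Dkk2 (1.54), Dkk3 (1.01), Sfrp1 (2.19), Axin2 (1.06) and Sp5 (1.22), with adjusted p-values from limma between 0.173 and 0.275. Wnt11 had only 1 DOX- array well above background, so this value and its p rest on background readings, although it counts among the 8. The second Wnt11 probe differed by 0.07 over all arrays. For Axin2, 2 DOX- arrays were well above background, and DOX- replicate 3, at -5.26, was not. The 6 lower ones were Wnt5a (-0.76), Wnt7b (-0.76), Fzd5 (-0.40), Fzd7 (-0.64), Lgr4 (-0.88) and Lgr5 (-2.36). In the other direction, within the first slide row, Rspo1 differed by -1.66, Rspo3 by -1.30, Wnt9a by -1.42, Fzd2 by -1.16, Dkk3 by -0.50, Dkk2 by -0.35 and Sfrp1 by -0.34. Without DOX- replicate 1 these differences were above 0, those not given above being 0.45 for Rspo3, 0.27 for Wnt9a and 1.11 for Fzd2. The 9 genes were picked because DOX- replicate 1 lay above the other DOX- arrays, so a lower difference against it was built in. The sign changed with the control array for 8 of the 9, Wnt5b being the exception (0.19 within the row). Wnt7b and Wnt5a, which were not picked in this way, gave about the same difference against either.

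**Figure D4:**
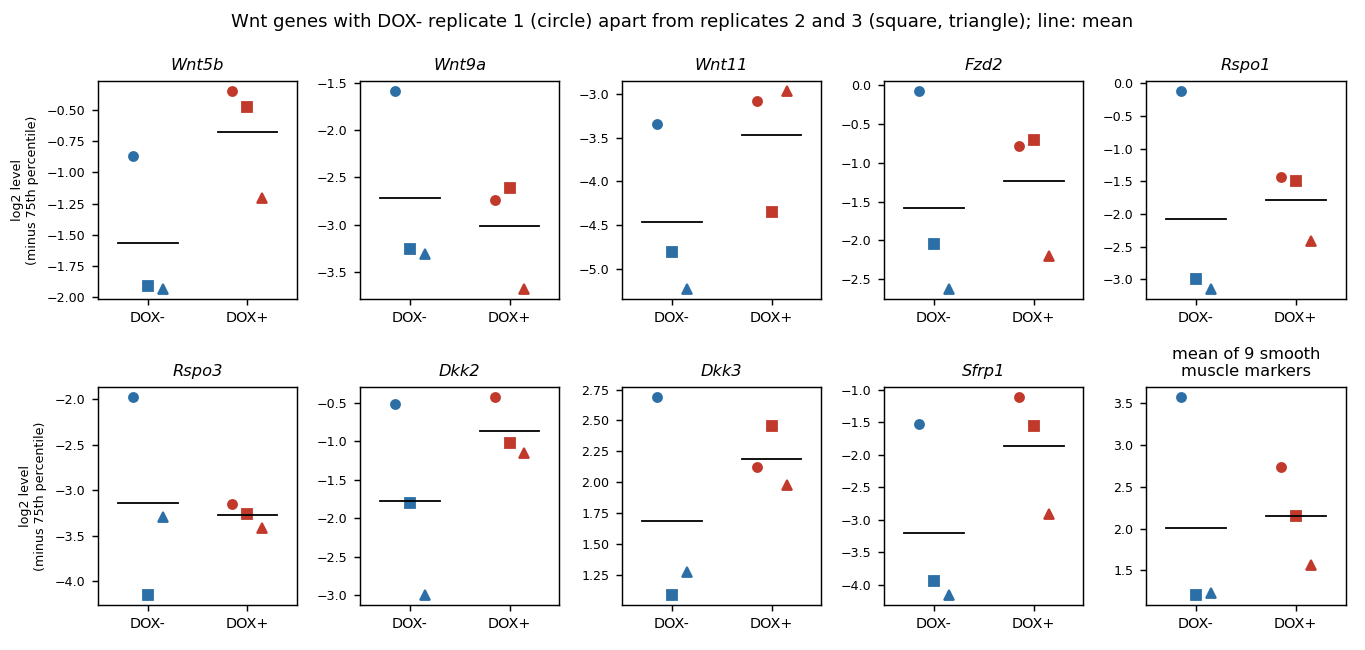
Log2 level relative to the array's 75th percentile (vertical axes, which differ between panels) on each array for the 9 Wnt genes with DOX- replicate 1 (blue circle) more than 1 unit above DOX- replicates 2 and 3 (blue square and triangle), and the mean of 9 smooth muscle markers in the last panel; red is DOX+ and the line is the group mean. The marker mean is 3.57 on DOX- replicate 1 and 1.21 and 1.23 on the other DOX- arrays.

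The rest of the pathway was described with a further list of 88 genes, of which 70 passed the filter. None had an adjusted p under 0.05 in limma, 35 were higher and 35 lower in DOX+, and the median difference was 0.00 on the log2 scale to 2 decimals. At an unadjusted p under 0.05, 3 of the 70 were higher and 2 lower, against 7.02% and 6.32% of all genes tested. The groups did not overlap for 3 higher and 9 lower genes of the 70, against 10.1% and 10.9% of all genes. Fzd9, a Frizzled receptor, had no DOX- reading well above background and lay at -4.15, -2.23 and -3.63 in DOX+, at least 2.98-fold higher. It passed the filter through the DOX+ arrays alone and was tested against background readings. Its p (limma adjusted p = 0.129) is therefore not that of a measured difference, although Fzd9 counts among the 3 higher genes. Tle2, a corepressor of Tcf factors, gave 3.54, 3.50 and 3.61 in DOX+ and 2.93, 2.79 and 2.81 in DOX- (difference 0.71, SE 0.12; limma adjusted p = 0.156). Its relative Tle3 differed in the opposite direction, by -0.48 (SE 0.17; limma adjusted p = 0.340). Celsr1, a planar cell polarity cadherin, differed by -0.40 and Tbx3, a reported target, by 0.69.

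Ctnnb1, which encodes beta-catenin, gave 3.55, 3.58 and 3.56 in DOX+ and 3.67, 3.95 and 3.82 in DOX- (difference -0.25, SE 0.12; limma adjusted p = 0.434). The groups did not overlap, and the difference was small. Of the 18 destruction complex and Dishevelled genes, 9 were higher and 9 lower, and of 14 nuclear complex genes 7 were higher and 7 lower. All 5 further secreted or membrane inhibitors that passed the filter were higher in DOX+, with a median of 0.44 and none at an unadjusted p under 0.05. Of these, Dkkl1, whose difference is the median, and Frzb passed through the DOX+ arrays alone. Each had 1 DOX- array well above background, so their differences rest partly on background readings. The mean of the 5 was -2.30, -2.42 and -3.06 in DOX+ and -2.43, -3.48 and -3.45 in DOX-, with DOX- replicate 1 among the DOX+ arrays. Porcupine and Wntless, the enzyme and the carrier of Wnt secretion, split 1 higher and 1 lower.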

How the data were processed

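The deposited scanner files hold spot intensity from Agilent Feature Extraction, which the file headers give as version 10.7.1.1 and the submitters' processing notes as 9.5.1.1. Per the file headers, background was subtracted and a spatial trend removed on each array separately. The 0 or 1 detection flags are from the same files. A further deposited table of the authors' processed intensity, with sorted columns alike between arrays on a linear scale, was used as an alternative. From the scanner files, log2 of the processed intensity minus each array's 75th percentile was computed, outlier spots (50 to 64 per array) were left out, and spots of a probe were averaged. A probe was kept if every array of 1 or both groups read it as well above background (31720 of 56605), and the probe with the highest mean represented a gene. The group comparison used limma (version 3.58.1, R 4.3.3; two-sided, Benjamini-Hochberg over 20736 genes, threshold 0.05); SEs of second probes come from the same model over probes. The scripts were tested on simulated data. Probes were named through RefSeq GRCm38.p6 (32994 by accession, 10224 by symbol, 520 by an older symbol, 12867 by the file's name). The Wnt genes and gene lists were chosen with earlier results of these data known. Named with their array values are genes past the threshold or with groups that do not overlap, the brightest of each role and all targets. The labels do not say how samples relate to animals beyond 3 mice per condition, so the p-values speak of the spread among these samples, which may be technical. Fgf10 itself gives no check of the labels, since no probe for it was well above background on any array.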

Additional observations from a re-analysis of the deposited data

How the results depend on the processing

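In all 17 alternatives run, none of the Wnt genes had an adjusted p under 0.05 in limma, and the 7 genes with an unadjusted p under 0.05 kept the sign of their difference (Wnt10a in the 16 that measured it). Some of the alternatives, such as the replicate block, can change the error of a difference but not its size or sign. Wnt7b and Wnt5a had an unadjusted p under 0.05 in all 17, Lgr4 in 16, Wif1 in 12, Sp5 and Wnt10a in 11 and Fzd5 in 10. The number at an unadjusted p under 0.05 was 12 with array weights (against 23.5% of all genes) and 4 to 14 when each array was left out in turn (7.43% to 15.8% of all genes). The number whose groups did not overlap, which leaving out an array cannot lower, was then 5 to 15 (25% to 37.2% of all genes). The count over all genes, 8, was 5 with the array median or with probes above background on all 6 arrays, 259 with array weights, 2 with the authors' processed table or quantile normalisation, 1 with no filter, and 0 to 9 without single arrays (0 without DOX- replicate 2, where 1541 had an unadjusted p under 0.05; 1 without DOX+ replicate 1). With the slide row as a block it was 0, and 1409 genes had an unadjusted p under 0.05. With that block the role medians were -0.76 for ligands, -0.11 for Frizzled receptors, -0.81 for co-receptors and R-spondins and -0.50 for inhibitors, and 10 genes changed sign. The ligand median was -0.68 to 0.20 without single arrays, and the inhibitor median -0.18 with no filter. The cause was not tested. No pairing by replicate number was seen: same-numbered deviations correlated at -0.09, -0.13 and -0.02, and differently numbered ones at -0.13 to 0.22. With 3 arrays a group, these values cannot settle whether the samples were paired. With the replicate block, 0 of all genes passed, and 2257 (10.9%) had an unadjusted p under 0.05. Of the 37 Wnt genes 9 did so, and 5 of these were among the 7. Of single-gene values, 605 moved by less than the spread between replicates and 20 by more. The 605 include values that could not move, since the replicate block and a fit over all kept probes return the main difference. With 3 arrays a group the median SE was 0.19.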
